A study of Mus musculus with 4 samples.

Results

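Regions occupied by Insm1 and Foxa2 but not by Neurod1 were examined in a mouse beta cell line. They were selected on measured values, the site calls of the deposited lists, by merging every deposited site of the 3 factors wherever sites overlapped by at least 1 bp and keeping the regions with an Insm1 site, a Foxa2 site and no Neurod1 site. This gave 3164 regions of 39412 in all (8.03%, 95% Wilson interval 7.76 to 8.30%). Because the regions were chosen by these calls, the presence of Insm1 and Foxa2 and the absence of Neurod1 are no findings here. Absence means that no site was called, since the lists hold no read signal for places without a site.

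Each factor was pulled down from chromatin in 1 sample (Insm1, Neurod1 or Foxa2 antibody), and a further sample with control IgG enters no comparison because no site list of it was used here. All samples came from the same kind of cells, at passages 10 to 15 and in medium with 25 mmol/l glucose and 15% serum. Per the labels, the line came from the islets of RIP1-Tag2 mice aged 6 weeks, whose background combines the strains CBA/J, C57BL/6 and 129/ola. These mice carry a viral oncogene under an insulin promoter, so the line is a tumour model of a beta cell. Site lists cannot show the expression of marker genes, so the labelled cell type was not checked. The series design text mentions replicates for Foxa2 and for Insm1, but 1 list per factor was used here. There is thus no spread between replicates and no test between classes of regions. Intervals are 95% Wilson intervals for shares and 95% order-statistic intervals for medians, and both cover counting error only. Depth per library is unknown, because the lists carry no read counts.

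Insm1, found in neuroendocrine cells, binds DNA through zinc fingers and is best known as a repressor that acts through its SNAG domain. Foxa2 is a forkhead protein that can bind DNA in closed chromatin and acts in the development of the foregut, liver and pancreas. Neurod1 is a basic helix-loop-helix protein that binds E-boxes, among them that of the insulin promoter. All of them are needed for normal islet function in mice, and the title of the series names their cooperation. The regions without Neurod1 show where the other factors were called together in its absence. Positions below are on the mm9 build as deposited. No gene positions of that build were used, so regions are named by position and no sequence is given.

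Regions with Insm1 and Foxa2 were a minority without Neurod1. Of the 9829 regions with both factors, 6665 also held Neurod1 and 3164 did not (32.2%, 31.3 to 33.1%). This share was 24.7% with lists of equal length and 35.8% with only sites above the median score of each list. Of the regions with Insm1 and no Foxa2, 4667 lacked Neurod1 and 2957 held it. Of those with Foxa2 and no Insm1, 16974 lacked it and 1576 held it. The 3164 regions took up 18.1% of the 17453 Insm1 sites and 11.1% of the 28379 Foxa2 sites. Each of them was built from 1 Insm1 site and 1 Foxa2 site, since no merged region held more than 1 site of a factor. They spanned 53 to 677 bp, with a median of 232 bp (230 to 234 bp). The median width was 175 bp for the Insm1 site and 206 bp for the Foxa2 site, compared with 192 and 212 bp in regions with all 3 factors. A narrow site of at most 60 bp was present in 19 of the 3164.

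At the edges of the rule few regions were at stake. The Insm1 and Foxa2 sites overlapped by at most 10 bp in 8 regions, and 9 regions with Insm1 alone had a Foxa2 site at most 10 bp away. A Neurod1 site lay at most 10 bp outside 11 of the chosen regions. The closest stood 3 bp from the region at chr3:80135969-80136211, where the Insm1 score was 169 and the Foxa2 score 141. The next were 5 bp away, on chromosome 18 and at chr4:8795023-8795311. Just outside the rule, the Neurod1 site touched its neighbours by at most 10 bp in 6 regions with all 3 factors. These included a region at chr1:64272749-64273108 with an overlap of 1 bp, which also held a Foxa2 site of 56 bp. The overlap was 4 bp at chr8:105224265-105224543, and 6 bp at chr4:94850756-94851141.

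In the regions without Neurod1 the median Insm1 site ranked under the middle of its list and the median Foxa2 site above it, and both ranked lower than in regions with all 3 factors. The scores are the authors', with a definition not given in the sources used here, so each was turned into a percentile within its own list. The Insm1 scores ran from 76 to 1508, and the median of 113 stood at percentile 36.7 of the Insm1 list (34.7 to 37.7). The Foxa2 scores ran from 19 to 1045, and the median of 56 stood at percentile 63.9 of the Foxa2 list (62.3 to 65.3). In regions with all 3 factors the medians stood at percentiles 70.3 (69.5 to 71.4) for Insm1 and 78.6 (77.9 to 79.3) for Foxa2. With lists of equal length the median Foxa2 percentile without Neurod1 was 55.4 (52.8 to 57.7), close to the middle of that list. Foxa2 stood at the higher percentile in 2279 of the 3164 regions (72.0%, 70.4 to 73.6%). The same was seen in 59.2% (58.0 to 60.3%) of the regions with all 3 factors. Percentiles of lists of different length and threshold show position within a list and not relative occupancy.

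**Figure D1:**
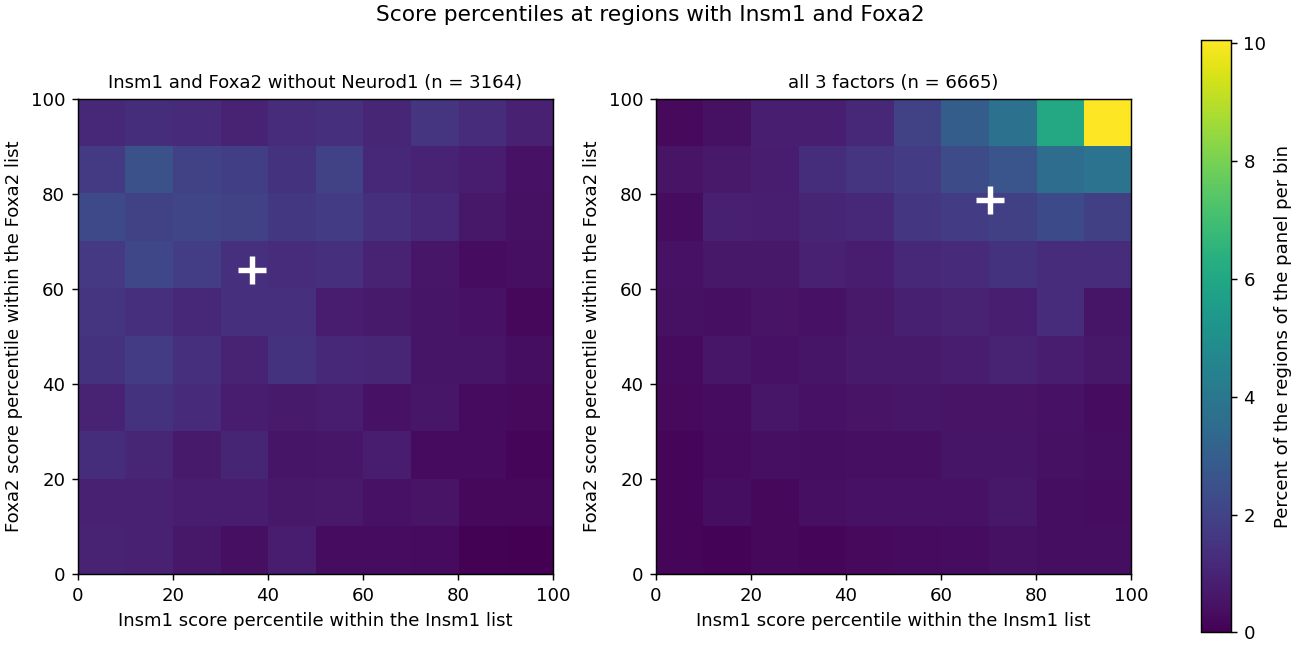
Share of regions in bins of 10 percentiles of the Insm1 score (horizontal) and of the Foxa2 score (vertical), for 3164 regions without Neurod1 (left) and 6665 regions with all 3 factors (right), with the medians as white crosses. In the left panel 40.4% of the regions lie in the upper left, with the Insm1 percentile below 50 and the Foxa2 percentile above 50. In that panel 0.917% fall in the bin with both percentiles above 90, compared with 10.1% on the right.

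Among the 3164 regions, 1279 (40.4%) had an Insm1 score below and a Foxa2 score above the median of its list, and 360 (11.4%) had the opposite. Both scores were above the median in 743 (23.5%) and both below it in 782 (24.7%). Where Neurod1 was present as well, both were above in 59.3% of regions and both below in 9.11%. The highest 10% of the Insm1 list supplied 113 of the regions without Neurod1 (3.57%) and 1311 of those with all 3 factors (19.7%). For the Foxa2 list these numbers were 385 (12.2%) and 1891 (28.4%). Insm1 regions with neither partner stood lower still, at a median percentile of 29.9 (29.0 to 30.7). Foxa2 regions with neither partner stood at 37.3 (37.3 to 39.1), well under the 63.9 of Foxa2 sites with Insm1 and without Neurod1. These scores come from the pull-downs that chose the regions, and the values are therefore descriptions.

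Within the regions without Neurod1 the Insm1 and Foxa2 scores were nearly unrelated. Spearman's rho was 0.12 over the 3164 regions, compared with 0.34 over the 6665 with all 3 factors. The points share the 2 libraries and the thresholds of the lists, so rho is given as a description.

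Among the 5 regions with the highest Insm1 scores, the Foxa2 score ranged from near the top of its list to near the bottom. Among the 5 highest by Foxa2 score, the Insm1 ranks ran from 171 to 8161 of 17453, so none was near the bottom. The strongest Insm1 site lay at chr3:5860626-5860762, with an Insm1 score of 1508 (rank 7 of its list) and a Foxa2 score of 184 (rank 1757). The next lay at chr5:50032745-50032976, with ranks of 43 for Insm1 and 4735 for Foxa2. At chr14:38169167-38169468 the Insm1 site ranked 89 and the Foxa2 site, at a score of 23, ranked 25133. The other regions among the 5 highest by Insm1 score lay at chr3:128072585-128072950 and at chr2:129631240-129631436. Their Insm1 sites ranked 99 and 123, and their Foxa2 sites 3691 and 21993. In 4 of these 5 regions the nearest Neurod1 site was 71650 bp or more away, and in the last it was 4813 bp away.

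By Foxa2 score the first was a region at chr1:75334495-75334889, with a Foxa2 score of 1045 (rank 27) and an Insm1 score of 237 (rank 2305). A region at chr3:57148164-57148495 followed, with a Foxa2 rank of 44 and an Insm1 rank of 905. The third lay at chr6:87227531-87227742, with a Foxa2 rank of 55 and an Insm1 rank of 171. It also had the highest mean of both percentiles, and its summits stood at the same base. The fourth, at chr6:30659287-30659587, had a Foxa2 rank of 56 and an Insm1 rank of 8161. The last, at chr2:33685508-33685725, had ranks of 76 and 1190. Neurod1 sites stood within 1 kb of the first 3, at gaps of 508, 128 and 385 bp, and at 80934 and 111321 bp from the others.

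The best-ranked regions by the mean of both percentiles, after that on chromosome 6, lay at chr2:159588959-159589118, chr15:59480027-59480254, chr7:87287505-87287656 and chr5:27360205-27360420. The Insm1 ranks were 223, 285, 483 and 451 in that order, and the Foxa2 ranks 192, 649, 333 and 516. Their Neurod1 gaps were 43, 609, 787 and 22687 bp. Thus 4 of the 5 best-ranked regions had a Neurod1 site within 1 kb that did not touch them. Over all 3164 regions this share was 4.90%, and over the 29 with both percentiles above 90 it was 24.1%.

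How often Neurod1 was absent varied with the score of the Insm1 site. The 9829 regions with Insm1 and Foxa2 were divided into 10 equal bins by Insm1 score. In the lowest bin, with scores of 76 to 91, 639 of 983 regions lacked Neurod1 (65.0%, 62.0 to 67.9%). The share fell in every further bin, to 34.0% (31.1 to 37.0%) in bin 5 and 7.02% (5.58 to 8.79%) in the highest, where 69 of 983 regions lacked it. With only sites above the median score of each list, the share in the highest bin was 13.6% (10.8 to 17.0%). Binned by Foxa2 score, the share was 45.2% (42.1 to 48.3%) in the lowest bin and 10.7% (8.90 to 12.8%) in the highest. It was 42.0% (39.0 to 45.1%) in bin 2 and 43.8% (40.8 to 47.0%) in bin 3, with intervals that overlap that of the lowest, and was lower in each bin from there on.

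**Figure D2:**
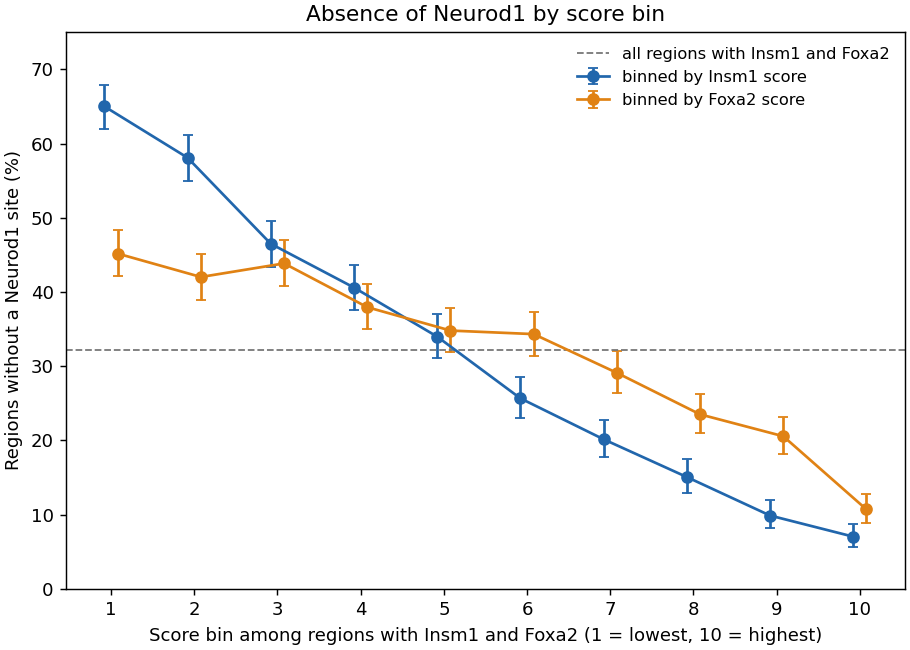
Share of regions with Insm1 and Foxa2 that lack a Neurod1 site (vertical, percent) in 10 bins of the Insm1 score (blue) and of the Foxa2 score (orange), with 95% Wilson intervals as bars and 32.2%, the share over all 9829 regions, as a dashed line. The blue points fall from 65.0 to 7.02% and the orange points from 45.2 to 10.7%.

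Each score was also compared at a like level of the other, with 5 equal bins per factor. Among regions in the lowest Foxa2 bin, the share without Neurod1 went from 65.3% (61.3 to 69.1%) in the lowest Insm1 bin to 19.3% (14.2 to 25.5%) in the highest. In the highest Foxa2 bin it went from 55.7% (47.4 to 63.7%) to 4.53% (3.32 to 6.16%). Along Foxa2, the share went from 65.3 to 55.7% in the lowest Insm1 bin, where the intervals overlap. In the highest Insm1 bin it went from 19.3 to 4.53%. Strong Foxa2 sites with weak Insm1 sites thus lacked Neurod1 in 78 of 140 regions, and weak Foxa2 sites with strong Insm1 sites lacked it in 36 of 187.

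Regions without Neurod1 continued the order seen among regions with weak Neurod1 sites. The 6665 regions with all 3 factors were divided into 4 equal groups by Neurod1 score. The median Insm1 percentile was 88.6 (87.8 to 89.7) in the group with the highest Neurod1 scores, then 72.4, 62.2 and 51.0 (48.2 to 52.3) in the lowest, with scores of 46 to 64. It was 36.7 where Neurod1 was not called. The median Foxa2 percentile was 88.5, 78.2, 74.3 and 71.3 (69.2 to 73.3) in these groups, and 63.9 without Neurod1. Both orders ran the same way, with a wider range of percentiles for Insm1. The percentiles come from lists of different length, and these groups were not rerun with lists of equal length.

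Summits of Insm1 and Foxa2 lay at like distances without and with Neurod1, and the intervals of the medians overlap. The median distance was 40 bp (39 to 42 bp) in the regions without Neurod1, with quartiles of 18 and 73 bp, and 39 bp (38 to 41 bp) in those with all 3 factors. Summits lay within 25 bp of each other in 1069 of the 3164 regions (33.8%, 32.2 to 35.5%) and in 35.8% (34.7 to 37.0%) of those with all 3. They were over 100 bp apart in 423 regions (13.4%) and in 14.3% of the others. The Foxa2 summit was at the higher coordinate in 51.5% (49.8 to 53.3%), and 26 regions had both summits at the same base. Strand was not taken into account.

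**Figure D3:**
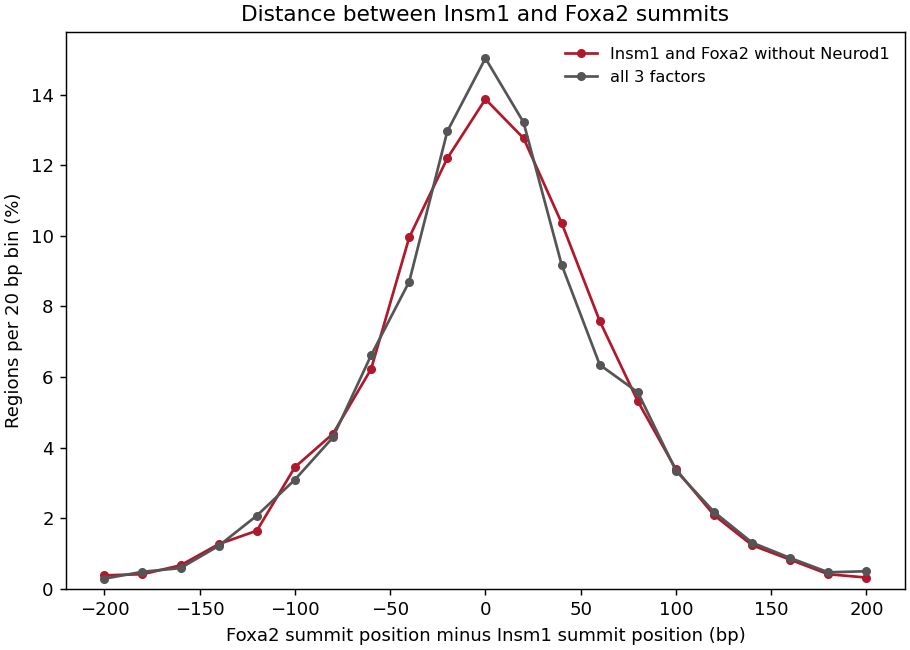
Position of the Foxa2 summit relative to the Insm1 summit (horizontal, bp, in bins of 20 bp, up to 210 bp on either side) as a share of regions (vertical, percent), for regions without Neurod1 (red) and with all 3 factors (grey). Both curves peak at 0 bp, and 1.26% of the red and 1.70% of the grey regions lie outside the range drawn.

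The overlap between the sites was broad. It had a median of 151 bp (150 to 153 bp), and in 1413 regions (44.7%) one site lay wholly inside the other. The Insm1 summit fell inside the Foxa2 site in 89.4% (88.3 to 90.5%) and the Foxa2 summit inside the Insm1 site in 88.1% (86.9 to 89.2%). With all 3 factors these shares were 91.6 and 91.2%. Overlap was the condition for choosing the regions, and it bounds these distances.

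Most regions without Neurod1 had no Neurod1 site within 10 kb. The median gap to the nearest one was 37210 bp (34513 to 39633 bp). A Neurod1 site lay within 10 kb of 734 regions (23.2%, 21.8 to 24.7%), within 100 kb of 2362 (74.7%, 73.1 to 76.1%) and within 1 kb of 155 (4.90%, 4.20 to 5.71%). Regions with Foxa2 alone had shares with overlapping intervals within 10 kb (22.5%, 21.9 to 23.1%) and within 1 kb (4.99%, 4.67 to 5.33%). Within 100 kb their share was lower, at 70.4% (69.7 to 71.1%). Regions with Insm1 alone had a Neurod1 site within 1 kb more often, at 8.38% (7.62 to 9.21%), and the intervals do not overlap. Their median gap was 29311 bp, and that of Foxa2 alone 42541 bp.

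**Figure D4:**
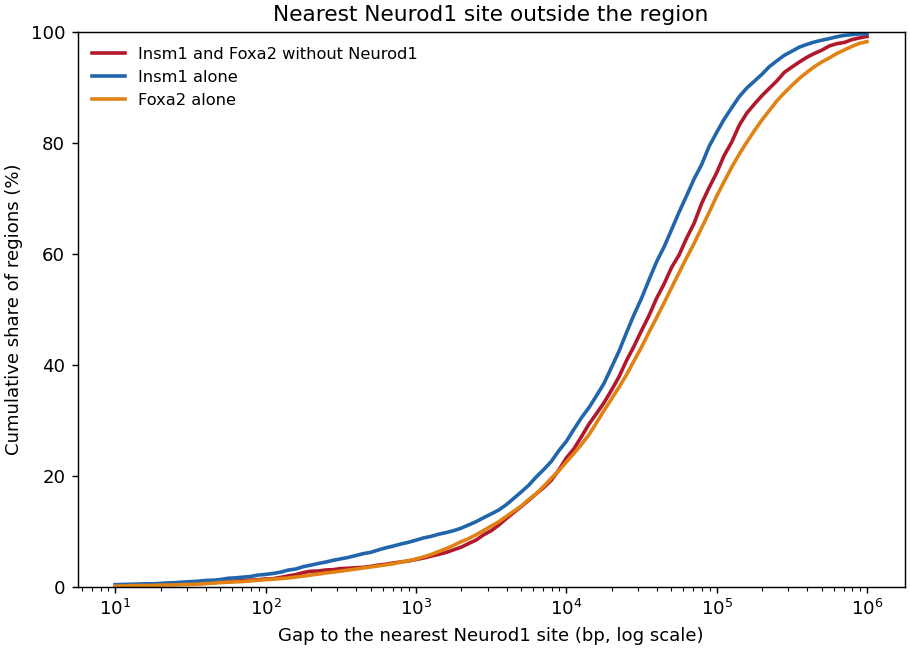
Cumulative share of regions (vertical, percent) by the gap to the nearest Neurod1 site (horizontal, bp, log scale) for 3164 regions with Insm1 and Foxa2 (red), 4667 with Insm1 alone (blue) and 16974 with Foxa2 alone (orange). The red curve runs with the orange one up to 10 kb and between the others at 100 kb, with 74.7% against 81.9% for Insm1 alone and 70.4% for Foxa2 alone.

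A small group of regions had a Neurod1 site right beside them. The gap was at most 200 bp in 88 regions (2.78%, 2.26 to 3.41%) and between 200 and 400 bp in only 20. Per kb of gap this is 440 regions in the first interval, 100 in the second and 64.3 from 1 to 10 kb. A gap of at most 200 bp was also found for 3.88% (3.36 to 4.47%) of regions with Insm1 alone. With Foxa2 alone it was 2.09% (1.89 to 2.32%), so such a group is not particular to the paired regions. In all 88 the near Neurod1 site overlapped no site of the other factors. Sites within 1 list were never closer than 345 bp for Insm1 and 405 bp for Foxa2, and the part of this spacing in that count was not tested. The 88 near Neurod1 sites had a median percentile of 47.8 in the Neurod1 list. The regions beside them had median percentiles of 62.7 for Insm1 and 76.8 for Foxa2, compared with 34.7 and 59.7 where the gap was 1 to 10 kb, 34.7 and 61.6 at 10 to 100 kb, and 36.7 and 69.2 in the 802 regions over 100 kb away. With gaps of 400 to 1000 bp the medians were 66.9 and 75.3, in 47 regions.

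Among the paired regions, those with the highest scores more often had Neurod1 within 1 kb, and this was hardly seen within 10 kb. The 3164 regions were divided into 5 equal bins by the mean of the Insm1 and Foxa2 percentiles. A Neurod1 site lay within 1 kb of 2.37% (1.44 to 3.87%) in the lowest bin, and of 1.74, 3.80 and 4.90% in the bins that follow. In the highest bin it was 74 of 633 regions (11.7%, 9.42 to 14.4%), and its interval does not overlap those of the others. Within 1 kb the share rose along the Insm1 percentile from 1.58 to 11.5%, and along the Foxa2 percentile it was 3.79, 3.48 and 3.32% in the first 3 bins and 8.69% in the highest. Within 10 kb the share was 22.9, 23.5, 20.6, 22.3 and 26.7% over the 5 bins of the mean percentile. Along the Foxa2 percentile it was 24.0% in the lowest bin and 21.5% in the highest. The shares within 10 kb include the regions with Neurod1 within 1 kb. By mean percentile, these were 15 of 145 in the lowest bin and 74 of 169 in the highest. A rise within 1 kb was also present in regions with Insm1 alone, from 4.60% (3.44 to 6.14%) to 15.6% (13.4 to 18.1%), and with Foxa2 alone, from 2.77% (2.27 to 3.38%) to 10.3% (9.30 to 11.3%). It is therefore not particular to the paired regions. With sites widened by 100 bp, which moves regions with a close Neurod1 site out of the class, the share in the highest bin was 5% (3.56 to 6.97%). With sites as deposited, the share within 10 kb for Insm1 alone was 23.8% (21.1 to 26.6%) in the lowest bin and 30.3% (27.4 to 33.3%) in the highest. For Foxa2 alone it was 19.8% (18.5 to 21.2%) and 26.4% (24.9 to 27.9%). In both classes these intervals do not overlap, and the shares include regions with Neurod1 within 1 kb.

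**Figure D5:**
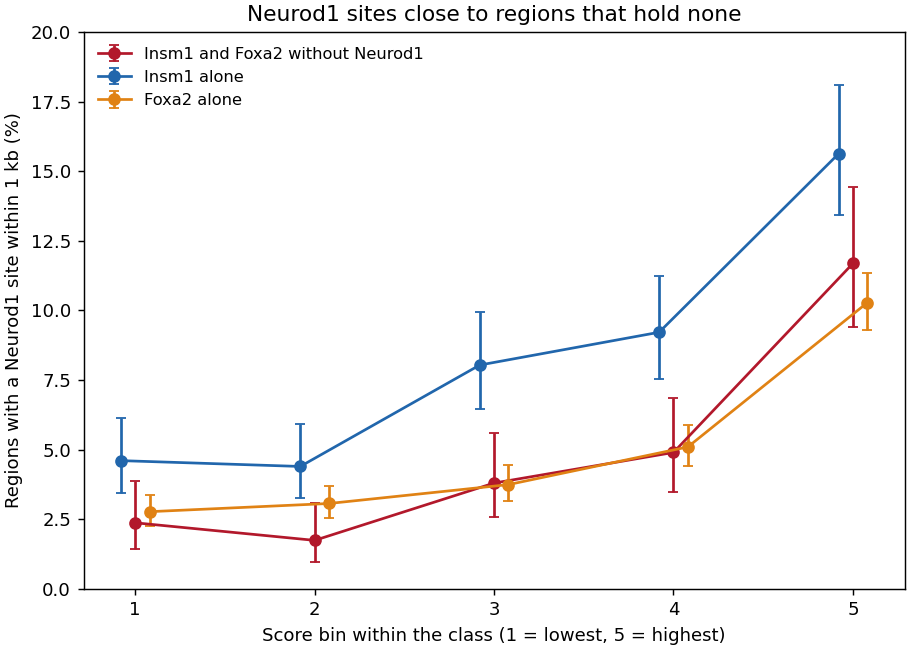
Share of regions with a Neurod1 site within 1 kb (vertical, percent, 95% Wilson intervals as bars) in 5 score bins of regions with Insm1 and Foxa2 (red, by the mean percentile), Insm1 alone (blue) and Foxa2 alone (orange). All 3 classes are highest in bin 5, at 11.7, 15.6 and 10.3%.

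Both percentiles were above 90 in 29 regions without Neurod1. A Neurod1 site lay within 1 kb of 7 of them (24.1%, 12.2 to 42.1%), and over 100 kb away from 9. Their gaps ranged from 43 to 497128 bp.

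Regions without Neurod1 were next to one another about as often as their share of all regions gives. The nearest other region was of the same class in 271 of 3164 cases (8.57%, 7.64 to 9.59%), against 8.03% of all regions. Regions with all 3 factors had a neighbour of their own class in 21.3% (20.3 to 22.3%) of cases, against 16.9% of all regions. The neighbour of a region without Neurod1 was Foxa2 alone in 44.9% (43.2 to 46.7%) and held all 3 factors in 16.8% (15.5 to 18.1%), against 43.1 and 16.9% of all regions. Insm1 alone was the neighbour in 9.36% (8.39 to 10.4%), under its 11.8% of all regions, and Neurod1 alone in 9.96% (8.96 to 11.0%), over its 8.65%. The last share rests on 315 regions, which include all 88 with Neurod1 within 200 bp. Leaving these out could only lower the share, so their part in it was not tested. Next to regions with all 3 factors, Insm1 alone was also under its 11.8% (9.57%, 8.89 to 10.3%). The same held next to Foxa2 alone (10.3%, 9.82 to 10.7%) but not next to Insm1 alone (13.0%, 12.0 to 14.0%). For regions without Neurod1 the median gap to the nearest region was 12321 bp (11693 to 13026 bp), compared with 9710 bp (9314 to 10076 bp) for regions with all 3 factors. Regions that followed each other directly along a chromosome were both of the class in 305 cases, and 67 of these pairs were at most 10 kb apart.

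Regions without Neurod1 were present on all autosomes and on X, and none lay on chromosome Y or the mitochondrial chromosome. The largest number, 280, lay on chromosome 2. They made up 5.53% (4.48 to 6.80%) of the regions on chromosome 17, the lowest share, and 9.28% (8.17 to 10.5%) on chromosome 3, the highest. On chromosome 17, 24.5% (20.2 to 29.3%) of the regions with Insm1 and Foxa2 lacked Neurod1, compared with 36.3% (32.5 to 40.2%) on chromosome 3. These intervals do not overlap, but the chromosomes were picked as the extremes of 20. On the X chromosome 49 of 123 regions with Insm1 and Foxa2 lacked Neurod1 (39.8%, 31.6 to 48.7%), an interval that includes the 32.2% over all chromosomes. The X chromosome carried 1.55% (1.17 to 2.04%) of the regions without Neurod1. It carried 1.11% (0.885 to 1.39%) of those with all 3 factors, 0.493% (0.329 to 0.738%) of those with Insm1 alone and 2.88% (2.64 to 3.14%) of those with Foxa2 alone. The share of the paired regions thus lay between those of the single factors, with no overlap of intervals. Of all 39412 regions, 1.88% (1.75 to 2.02%) lay on X, which is inside the interval of the paired regions. That interval also overlaps the one of regions with all 3 factors.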

How the data were processed

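ChIP-seq site lists of Insm1, Neurod1 and Foxa2 (1 each) were used. The mm9 build and the tools MACS 1.4, Bowtie 0.12.7 and CASAVA are named in the submitters' processing notes. Settings, thresholds, the control and the treatment of repeats remain unknown, not given in the sources used here. As deposited, the lists lack headers and hold chromosome, start, end, an inner position read as the summit, and a whole-number score by the authors of unknown definition.

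Sites were merged into regions, and scores were ranked within lists (mid ranks). Equal bins split tied scores by position. Gaps run from edge to edge. The members and lists were chosen with earlier results of these data known. Regions are named by rule: the 5 highest by mean percentile, by Insm1 score and by Foxa2 score, and those at the edges of the class. The part of the rule on regions merged from most sites was void, because all held 2 sites. Planned shares near transcription starts and with motifs were not run, since no mm9 genome or gene positions were used here. The rule on listed genes was dropped for the same reason. Bins by score, groups by Neurod1 score, neighbours and the share of high-ranked regions near Neurod1 were added after seeing the data. Merging and gaps were tested on simulated lists, and all 7 classes were recovered. The simulated sites of a region overlapped broadly and the regions lay kilobases apart, so overlaps or gaps of a few bp were not covered. Python 3.11.15, numpy 2.4.6, pandas 2.3.3, scipy 1.17.1 and matplotlib 3.10.9 were used.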

Additional observations from a re-analysis of the deposited data

How the results depend on the processing

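Of 57 alternative values for 10 results, 39 stayed within the 95% interval of the reported value, or within 1.5 times it for the number of regions, and 18 moved. With only sites above the median score of each list, 1663 regions held Insm1 and Foxa2 without Neurod1, 35.8% of those with both factors. The median Insm1 percentile, taken within the shortened list, was then 42.0, 1.14% lay on X, 14.7% had Neurod1 within 10 kb, 13.6% of the highest Insm1 bin lacked Neurod1, and 7.81% of the highest-ranked bin had Neurod1 within 1 kb. With each list limited to its 14607 best sites, these numbers were 1652 regions and 24.7%, with a median Foxa2 percentile of 55.4, a median summit distance of 38.5 bp, 55.2% lacking Neurod1 in the lowest and 5.53% in the highest Insm1 bin, and 16.6% of the highest-ranked bin near Neurod1. The first setting shortens all 3 lists and the second only those of Insm1 and Foxa2, and the share without Neurod1 moved in opposite directions. With sites widened by 100 bp, 21.2% had Neurod1 within 10 kb and 5% of the highest-ranked bin had it within 1 kb. Other distances in place of 10 kb gave 4.90% within 1 kb and 74.7% within 100 kb. An overlap of at least 50 bp, removal of sites of at most 60 bp and removal of regions with Neurod1 within 1 kb moved none of the results they were run on. No paired analysis was possible because each factor has 1 sample and no result comes from a test. Depth is unknown and limits how far an uncalled Neurod1 site can be read as unbound.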
